A study of Caenorhabditis elegans with 8 samples.

Results

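The AP-2 transcription factors of *Caenorhabditis elegans* are encoded by 4 genes, *aptf-1* (K06A1.1), *aptf-2* (Y62E10A.17), *aptf-3* (F28C6.2) and *aptf-4* (F28C6.1), and their transcripts were compared between *aptf-1* mutant and wild-type embryos. The members were the non-control array probes whose sequence name or RefSeq transcript maps to one of these genes, and this rule found 4 of 19794 matched genes and 7 of 43603 probes: 1 for *aptf-1*, 2 for *aptf-2*, 3 for *aptf-3* and 1 for *aptf-4*. The samples were whole pretzel-stage embryos of the hermaphrodite strain, either carrying the deletion allele *aptf-1(gk794)* or of the wild type N2. Both genotypes were grown on bacteria with no further treatment, at 21.5°C by the sample records, where the paper's general methods give another temperature. Each sample held about 3000 hand-picked embryos, and there were 4 samples per genotype, each hybridised to a 1-colour Agilent array.

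AP-2 proteins are a family of animal transcription factors that bind DNA as dimers through a conserved domain. In vertebrates they act in the neural crest, in the epidermis and in neurons. In *C. elegans*, APTF-1 is required in the RIS neuron, a sleep-active interneuron that contains the inhibitory transmitter GABA and the neuropeptide FLP-11, and mutants without APTF-1 fail to show sleep behaviour. APTF-2 is known for a role in the morphogenesis of the embryo. The comparison asked whether the transcripts of the 3 paralogs were changed in embryos that carry the *aptf-1* deletion.

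Signals are given as log2 intensity relative to the 75th percentile of the same array, so that a value of 0 is the level below which 75% of the probes lie and a difference of 1 is a doubling. The share of probes well above background ran from 79.4%, on N2 replicate 2, to 83.1%, no spot was saturated, and pairs of arrays correlated at 0.971 to 0.996 across probes. Replicates 1 and 2 of both genotypes shared a slide, and replicates 3 and 4 of both shared the other. A gene was called at an adjusted p under 0.05 from limma with Benjamini-Hochberg adjustment over 20617 genes and a fold change of at least 1.5. By this rule 8 gene names were called, 0.0388% of those tested, and 7 of them were lower in the mutant (0.034%). Of the 8 names, 2 (C10C6.7 and the transcript NM_001083191) belong to 1 gene in the paper's naming and were tested separately, because the transcript has no match in the gene table. All 7 AP-2 probes were well above background on 8 of 8 arrays.

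The signal of the *aptf-1* probe was 4.16-fold lower in the mutant. On probe A_12_P112897 the mutant replicates 1 to 4 had log2 signals of -1.38, -1.50, -1.82 and -1.49. The N2 replicates 1 to 4 had log2 signals of 0.73, 0.25, 0.65 and 0.41. Every mutant array lay below every N2 array, and the gap between the genotypes was wider than the spread within either, where 2.03% of all genes with a value on every array had genotypes that did not overlap. The background-corrected intensity of this probe was 879 to 1309 in the mutant and 3619 to 5821 in N2, so the mutant signal was reduced but still well above background on every array.

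The mean log2 signal of *aptf-1* was -1.55 ± 0.19 in the mutant (SD, n = 4) and 0.51 ± 0.22 in N2 (SD, n = 4). The log2 difference was -2.06 with a standard error of 0.14 (95% interval -2.38 to -1.73, limma adjusted p = 0.00216), which left 24.1% of the N2 signal (95% interval 19.2% to 30.2%). The exact permutation test of this value over the 70 assignments of the arrays gave p = 0.0286, two-sided, the smallest p that 4 against 4 samples allow. The log2 difference was -1.93 on the first slide and -2.18 on the second, and it was the lowest of the 20617 genes tested. Without N2 replicate 2 it was -2.14. The position of the probe relative to the deletion is not given in the sources used here. Whether the remaining signal came from a shortened *aptf-1* transcript or from other RNA was not tested. In RNA of whole embryos, fewer cells with the transcript and less transcript per cell cannot be told apart.

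**Figure D1:**
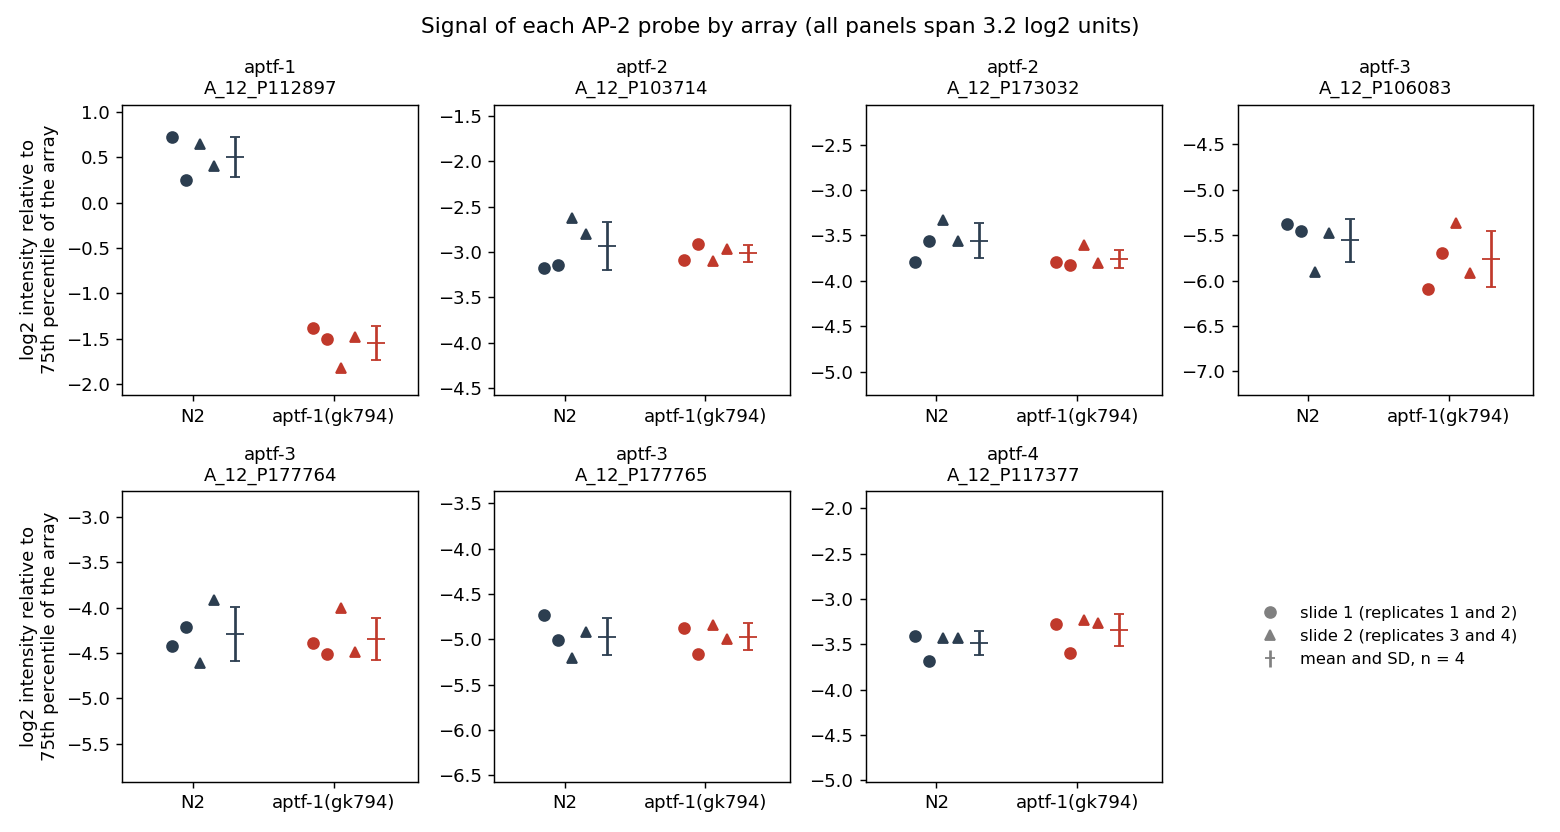
Log2 signal of each of the 7 AP-2 probes, scaled as in the text, in the 4 N2 and the 4 *aptf-1(gk794)* samples, with circles for the first slide, triangles for the second, and the mean and SD beside the points. The genotypes are apart for *aptf-1*, where the means are 0.51 and -1.55, and they overlap for the other 6 probes; levels of different probes are not comparable.

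*aptf-2*, the paralog with a known part in embryonic morphogenesis, was measured by 2 probes. On probe A_12_P103714 the log2 signals were -3.08, -2.91, -3.10 and -2.97 in the mutant replicates 1 to 4 and -3.17, -3.14, -2.63 and -2.80 in the N2 replicates 1 to 4. On probe A_12_P173032 they were -3.79, -3.82, -3.61 and -3.81 in the mutant and -3.79, -3.56, -3.33 and -3.56 in N2. The genotypes overlapped on both probes, and on both the highest value was that of N2 replicate 3. The log2 difference, mutant minus N2, was -0.08 on the first probe (95% interval -0.40 to 0.25) and -0.20 on the second (95% interval -0.48 to 0.08).

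Averaged over its probes, *aptf-2* had a mean log2 signal of -3.39 ± 0.04 in the mutant and -3.25 ± 0.22 in N2 (SD, n = 4 each). The mutant signal was 90.8% of that of N2, with a 95% interval of 75.1% to 109.6%. The log2 difference of -0.14 ± 0.12 (standard error) did not pass the test (limma adjusted p = 0.9998; exact permutation p = 0.314), and 34.8% of all genes tested had a larger absolute difference. The difference was 0.01 on the first slide and -0.29 on the second, so its sign was not the same in both.

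*aptf-3* was measured by 3 probes, and the 3 sets of values are given in turn. On probe A_12_P106083 the mutant replicates 1 to 4 had log2 signals of -6.09, -5.69, -5.37 and -5.91 and the N2 replicates had -5.38, -5.46, -5.91 and -5.48. On probe A_12_P177764 the values were -4.39, -4.51, -4.01 and -4.49 in the mutant and -4.43, -4.21, -4.62 and -3.92 in N2. On probe A_12_P177765 they were -4.88, -5.16, -4.84 and -4.99 in the mutant and -4.73, -5.01, -5.21 and -4.92 in N2. The genotypes overlapped on every probe: mutant replicate 3 was the highest of its genotype on each, and N2 replicate 3 was the lowest of its own. The background-corrected intensities of these probes were low, at 33.5 to 83.1 for the first, 109 to 205 for the second and 77.7 to 115 for the third, beside a median local background of 31.5 to 39 per array.

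The log2 difference of *aptf-3* was -0.21 on the first probe (95% interval -0.62 to 0.21), -0.06 on the second (95% interval -0.46 to 0.35) and 0.00 on the third (95% interval -0.30 to 0.30). The mean over the 3 probes gave a log2 difference of -0.09 ± 0.14 (standard error, limma adjusted p = 0.9998; exact permutation p = 0.514), which is 94.0% of the N2 signal with a 95% interval of 75.2% to 118%. Of all genes tested, 53.3% had a larger absolute difference. The difference was -0.25 on the first slide and 0.07 on the second.

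*aptf-4* was measured by 1 probe, A_12_P117377, with a background-corrected intensity of 228 to 350. The mutant replicates 1 to 4 had log2 signals of -3.28, -3.60, -3.23 and -3.26. The N2 replicates 1 to 4 had -3.41, -3.68, -3.43 and -3.43. Replicate 2 was the lowest of each genotype, and the ranges overlapped through it, since the other mutant values all lay above the N2 values. The mutant signal was 111% of that of N2 (95% interval 91.8% to 133%). The log2 difference of 0.14 ± 0.12 (standard error) did not pass the test (limma adjusted p = 0.9998; exact permutation p = 0.286). The difference was 0.11 on the first slide and 0.18 on the second, and 33.6% of all genes had a larger absolute difference.

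Thus 1 of the 4 AP-2 genes was called, *aptf-1* itself, and 0 of the 3 paralogs, beside the 0.0388% of all genes called. Of the 7 probes, 1 was called, beside 0.0504% of all probes. At an unadjusted p under 0.05, limma on the gene means, with the settings above, also gave 0 of 3 paralogs. In the probe fit 1064 of all 35690 probes were under 0.05, so a count of 0 in a short list says little about its members. The 95% interval of each paralog's gene mean lay inside a 1.5-fold change in either direction, whereas that of *aptf-3* probe A_12_P106083 alone reached past it. Without N2 replicate 2 the log2 differences were -0.17 for *aptf-2*, -0.07 for *aptf-3* and 0.08 for *aptf-4*. Differences of the sizes inside the gene-mean intervals are not excluded with 4 arrays per genotype. A change in the few cells that express *aptf-1*, within RNA of the whole embryo, was not tested.

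**Figure D2:**
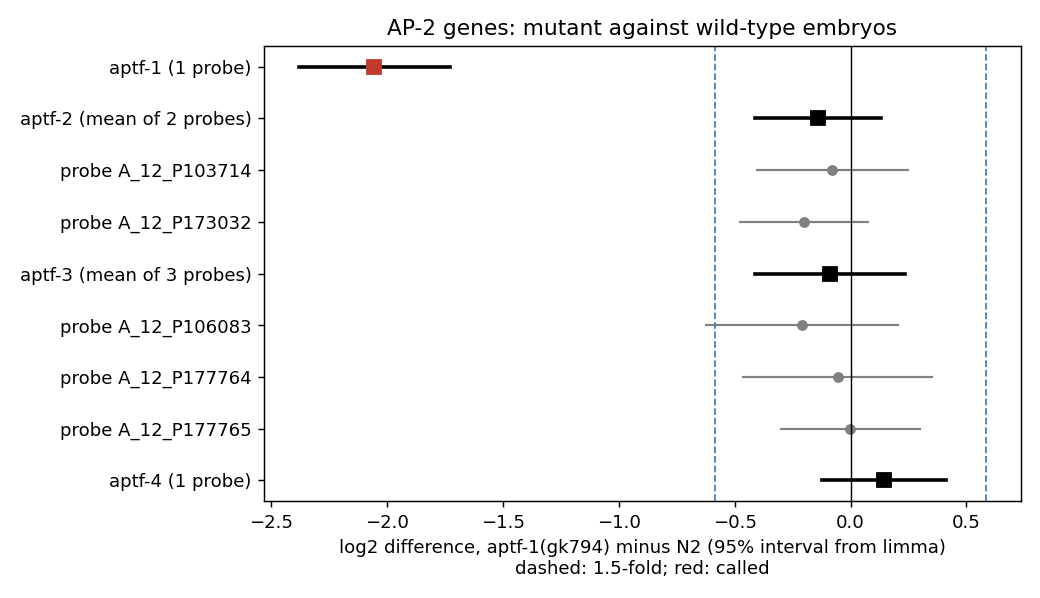
Log2 difference, *aptf-1(gk794)* minus N2, of the 4 AP-2 genes and their probes with the 95% interval from limma; dashed lines mark a 1.5-fold change and red marks the called gene. *aptf-1* lies at -2.06, and the gene means of the paralogs lie at -0.14, -0.09 and 0.14 with intervals that include 0.

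The difference between the change of *aptf-1* and that of its paralogs was tested directly. *aptf-1* is the gene that carries the deletion, so this test mostly restates its fall and tells little about the paralogs. Within each array the mean log2 signal of the 3 paralogs was subtracted from that of *aptf-1*, so that the scaling of the array cancels. This value was 2.57, 2.53, 1.96 and 2.44 in the mutant replicates 1 to 4 and 4.64, 4.22, 4.53 and 4.20 in the N2 replicates. The genotypes did not overlap, and the shift between them was -2.03 on the log2 scale (two-sided exact permutation p = 0.0286 over 70 assignments). With arrays exchanged only within a slide the exact permutation p was 0.0556, the smallest p that 36 assignments allow. The size of the value within a genotype mixes the efficiency of different probes and is not a ratio of transcripts, so only the shift was read.

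Against each paralog alone the shift of *aptf-1* was -1.92 for *aptf-2*, -1.97 for *aptf-3* and -2.20 for *aptf-4*. Each had an exact permutation p of 0.0286, the smallest p that 70 assignments allow. The adjusted p over these 3 comparisons, which share the *aptf-1* values, was also 0.0286. The paralogs were also compared with each other in 3 pairs. The change of *aptf-2* minus that of *aptf-4* was -0.28 (95% interval -0.61 to 0.30 from the exact permutation test, p = 0.0571, adjusted p = 0.171 over the 3 pairs). The change of *aptf-3* minus that of *aptf-4* was -0.23 (95% interval -0.66 to 0.31, exact permutation p = 0.143, adjusted p = 0.214). The change of *aptf-2* minus that of *aptf-3* was -0.05 (95% interval -0.88 to 0.39, exact permutation p = 0.914, adjusted p = 0.914). No pair of paralogs passed the test, and the intervals leave room for unequal changes of up to the sizes given.

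**Figure D3:**
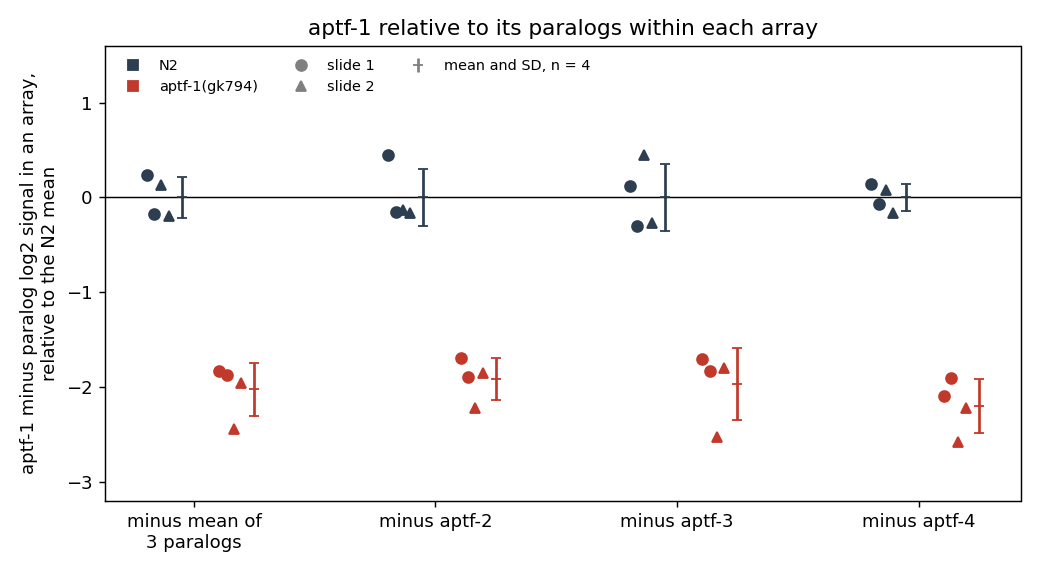
Log2 signal of *aptf-1* minus that of its paralogs in each array, drawn relative to the N2 mean, for the mean of the 3 paralogs and for each alone (4 points per genotype, circles for the first slide and triangles for the second, with mean and SD). The mutant arrays lie below all N2 arrays in each column, by 2.03, 1.92, 1.97 and 2.20 on average.

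The profiles of the members across the arrays were set beside each other. Over the 8 arrays, Pearson's r between gene means was 0.44 for *aptf-1* and *aptf-2*, 0.14 for *aptf-1* and *aptf-3*, and -0.44 for *aptf-1* and *aptf-4*. Among the paralogs it was -0.28 for *aptf-2* and *aptf-3*, -0.13 for *aptf-2* and *aptf-4* and 0.04 for *aptf-3* and *aptf-4*. These values are a description over 8 arrays that share genotype, slides and scaling. The genotype difference was not removed, and it enters the values of *aptf-1* above all. Probes of the same gene correlated at 0.59 for *aptf-2* and at 0.43 to 0.63 for *aptf-3*, so a low r between paralogs does not show that their profiles differ.

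Of 20236 genes with a value on every array, the 3 names whose profile was most like that of *aptf-1* were F57G4.7 (r = 0.989), the transcript NM_001083191 (r = 0.985) and C10C6.7 (r = 0.984). The last 2 are transcripts of the same gene, and the next gene in order was *snet-1* (r = 0.980), which was not called (log2 difference -1.01, limma adjusted p = 0.142). The first 3 were themselves called lower in the mutant, with log2 differences of -1.25, -1.73 and -1.74, and this genotype difference enters the correlation. With the mean of each genotype removed, r was 0.55 for F57G4.7, 0.40 for NM_001083191, 0.50 for C10C6.7 and 0.86 for *snet-1*. *aptf-2* was the gene of rank 2890 in the order without this removal. The genes most like *aptf-2* were *gadr-5* (r = 0.966), C15B12.9 (r = 0.945) and *lido-2* (r = 0.943). Those most like *aptf-3* were *srw-78* (r = 0.965), a member of a chemoreceptor family, *spe-43* (r = 0.935) and C39D10.7 (r = 0.933). Those most like *aptf-4* were R07G3.7 (r = 0.969), the transcript NM_064862 (r = 0.964) and *madf-11* (r = 0.960). All these names were picked for the highest r among 20236 genes, over few arrays. How high such an r would be by chance was not tested, so shared expression was not read from them. Probes of the same gene correlated less, at 0.59 for *aptf-2* and 0.43 to 0.63 for *aptf-3*.

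*aptf-1*, *aptf-3* and *aptf-4* lie on chromosome II and *aptf-2* lies on chromosome IV. *aptf-3* and *aptf-4* are adjacent, with 0 protein-coding genes between them, whereas 500 protein-coding genes separate *aptf-1* from *aptf-4*. The 3 nearest protein-coding genes on each side of the AP-2 genes gave 18 genes, of which 16 were tested. None of the 16 was called, and 0 had an unadjusted p under 0.05 in limma, beside 1064 of all 35690 probes. Of the 16, 9 had a positive and 7 a negative difference, and the median log2 difference was 0.01 beside -0.02 over all genes. The lowest value among them was -0.22, at Y62E10A.19 near *aptf-2*, and the highest was 0.14, at *dgk-5*, a diacylglycerol kinase gene next to *aptf-1*. F54C9.9, near *aptf-3* and *aptf-4*, had a log2 difference of -0.22 with no overlap between genotypes, as had 2.03% of all genes, and is named after its values were seen because its unadjusted p, 0.0544 in limma, was the smallest of the 16.

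RIS is the neuron in which the paper studied the action of *aptf-1*, and 6 genes of this neuron were examined. *flp-11*, which encodes the neuropeptide of RIS, was lower in the mutant. The paper reported this fall from these same arrays, so its call here is no independent evidence. Its log2 difference was -1.46 ± 0.11 (standard error, limma adjusted p = 0.00543, 3 N2 arrays), with N2 replicate 4 not used because spots there were marked as outliers, and it was -1.60 with those spots kept. The call was lost without N2 replicate 2 (limma adjusted p = 0.0658) and without N2 replicate 3 (limma adjusted p = 0.0635). The other 5 genes were not called. *lim-6*, which encodes a LIM homeodomain factor of RIS and other GABA neurons, had a log2 difference of -0.14, with mutant values of -2.91 to -2.85 that lay just below the N2 values of -2.85 to -2.69. The difference was -0.27 when a dim probe of the gene was also kept. It did not pass the test (limma adjusted p = 0.9998, with or without that probe), beside the 2.03% of all genes whose genotypes did not overlap.

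The remaining RIS genes belong to the machinery of GABA transmission. The log2 difference was -0.12 for *unc-25*, which encodes glutamate decarboxylase, over 3 mutant and 2 N2 arrays, and -0.08 with outlier spots kept. It was -0.19 for *unc-47*, the vesicular GABA transporter, and -0.01 for *unc-46*, which helps to sort that transporter to synaptic vesicles. It was 0.05 for *snf-11*, the plasma membrane GABA transporter. All 4 had a limma adjusted p of 0.9998. Single arrays moved these values: *unc-47* ranged from -0.27 to -0.06 when 1 array was left out (-0.06 without N2 replicate 4), *unc-25* from -0.18 to -0.05, *unc-46* from -0.06 to 0.03 and *snf-11* from 0.00 to 0.10. For *unc-25* the range covers 6 arrays left out in turn, and neither of its 2 N2 arrays was among them. The list as a whole had 1 gene lower, the already reported *flp-11*, and 5 not called, beside 0.034% of all genes called lower. Its median log2 difference was -0.13 beside -0.02 over all genes. These genes are also expressed outside RIS, so that a whole-embryo value does not measure RIS alone. C10C6.7 was not on this list, though the paper reports it in RIS among other cells, with its RIS expression dependent on *aptf-1*. It was called lower in the mutant here (log2 difference -1.74, limma adjusted p = 0.00326), and the paper lists it as lower from these same arrays.

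Because AP-2 factors of other animals act in the epidermis, 15 genes of epidermal identity, adherens junctions and embryonic elongation were examined beside the paralogs. None of the 15 was called, and 0 passed an unadjusted p under 0.05 in limma, beside 1064 of all 35690 probes. Of these, 13 had a positive difference and 2 a negative one, where 44.9% of all genes were positive, and their median log2 difference was 0.10 beside -0.02 over all genes. The values ranged from -0.08 at *hmp-2*, a beta-catenin of the adherens junction, to 0.21 at *nhr-25*, a nuclear receptor of the epidermis. In 18 alternatives 10 to 14 of the 15 were positive, and in 4 others, which left out an array and could test 14 of the genes, 10 to 13 were.

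**Figure D4:**
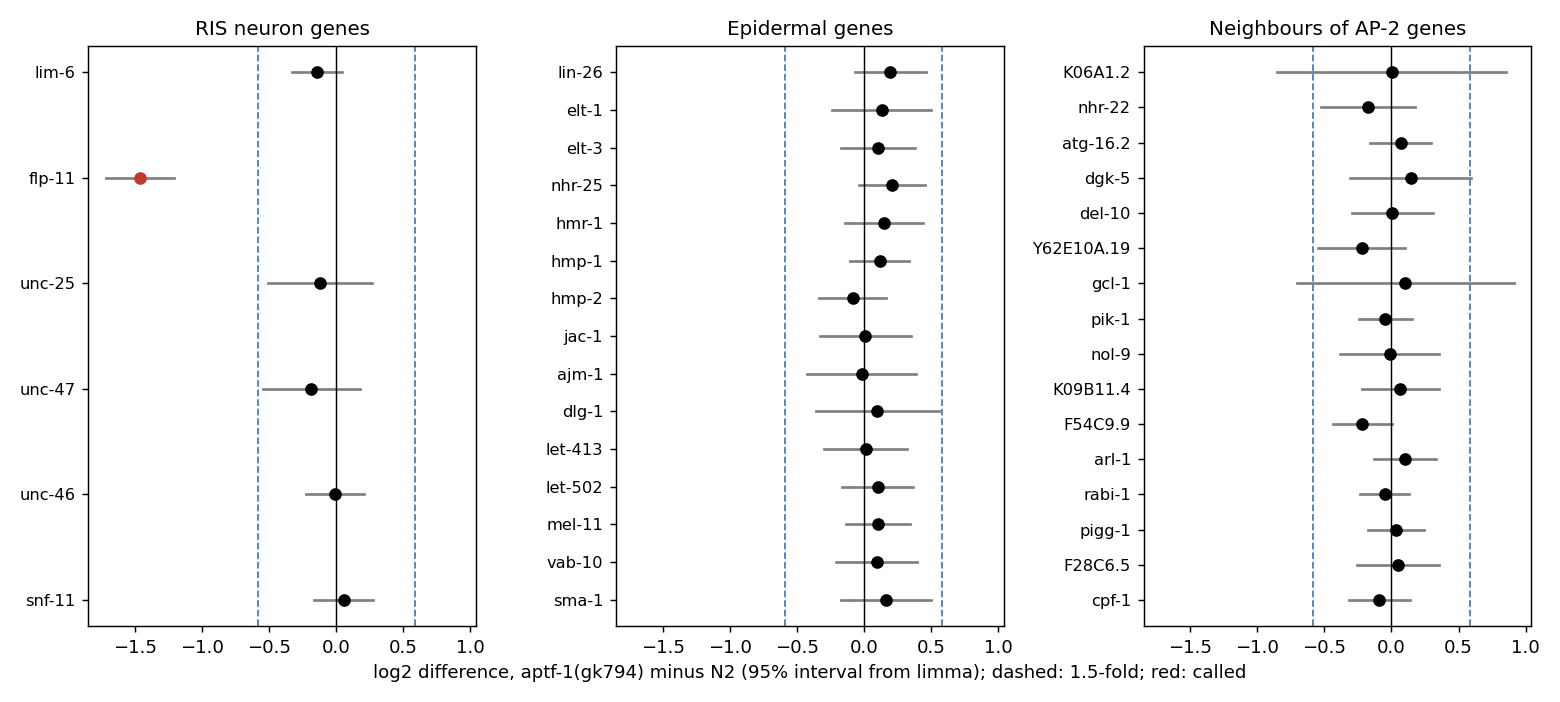
Log2 difference, *aptf-1(gk794)* minus N2, with the 95% interval from limma, for the genes of the RIS list, the epidermal and morphogenesis list and the neighbours of the AP-2 genes. *flp-11* lies at -1.46 and is the 1 gene called among the 3 lists.

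Markers of the tissues of the embryo were detected in both genotypes, among them the neuronal *unc-119*, the muscle myosin *myo-3*, the intestinal factor *elt-2* and the epidermal factor *lin-26*. Of 21 tested markers of neurons, body wall and pharyngeal muscle, intestine, epidermis, yolk and germ line, 0 were called and 0 passed an unadjusted p under 0.05 in limma. Among all 35690 probes, 1064 passed that level. The markers were few beside this share. Their log2 differences ran from -0.14 at *unc-15*, muscle paramyosin, to 0.46 at *vit-2*, a yolk protein gene, which was at 0.03 without mutant replicate 1. The summed signal of the 4 neuronal markers, in units of the 75th percentile, was 28.5 to 30.7 in the mutant and 29.3 to 34.4 in N2, over the 3 arrays of each genotype with a value for all 4, and that of the 2 epidermal markers was 5.18 to 6.78 in 3 mutant arrays and 4.54 to 5.90 in 4 N2 arrays. The genotypes overlapped in every marker list, and the part of tissue makeup in the AP-2 values was not tested.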

How the data were processed

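Gene expression was measured in whole pretzel-stage embryos on 8 one-colour arrays, from 200 ng of total RNA each. Groups and replicate numbers came from the sample records. The authors deposited Agilent Feature Extraction output, in which each spot has a background-corrected intensity, and a table of log2 values whose scale is not stated and which was used as an alternative. The submitters' processing notes also name limma; versions are not taken from them.

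Of 45220 spots per array, 1417 control spots and 62 to 188 spots marked as outliers were left out. Intensities were divided by the array's 75th percentile (2283 to 3713), and their log2 was averaged per probe. Probes well above background on at least 4 arrays, with 2 or more values per genotype, were tested (35690), and tested probes of a gene, or of a name with no match, were averaged (20617 names, called genes here). Of 43603 probes, 34266 matched a gene in the WBcel235 table, which was used for names and neighbours; coordinates and sequences were not used here. Differences were fitted over all genes, without a block, with limma 3.58.1 in R 4.3.3 (lmFit, eBayes, Benjamini-Hochberg adjustment). Over probes, 18 were called (0.0504%). Single values were tested by two-sided exact permutation of the arrays. Python 3.11.15 was used for the rest.

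The members and gene lists were chosen with earlier results of these data known. All AP-2 probes and RIS genes are named; of the other lists, called genes and the extremes; and the 3 genes most correlated with each member. Alternatives were other scalings, normexp on median spot signals (offset 50), filters, outlier spots kept, trended eBayes, array weights, slide or replicate blocks, a Student's t-test (which the paper names for other data than the arrays), the deposited log2 values, and each array left out. The scripts were tested on simulated data. The paper describes the samples as biological; p-values measure the spread between them. The number of arrays limits precision.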

Additional observations from a re-analysis of the deposited data

Results flagged for a closer look

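Of 29 sets of 4 values examined for the AP-2 genes, 4 held a sample that stood apart from the other 3. Chance marks about 1 set in 20, or 1.45 sets here. The sets share arrays and probes, so these counts are no test of an excess. In the *aptf-2* probe A_12_P173032, mutant replicate 3 lay at -3.61 on the log2 scale, with the nearest sample at -3.79, a gap of 0.855 of the range. In *aptf-3*, averaged over its probes, mutant replicate 3 lay at -4.74, with the nearest at -5.12, a gap of 0.968 of the range.

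The *aptf-4* probe A_12_P117377 stood apart in both genotypes through replicate 2, which shared a slide with replicate 1. Mutant replicate 2 lay at -3.60, with the nearest at -3.28 (0.867 of the range), and N2 replicate 2 lay at -3.68, with the nearest at -3.43 (0.934 of the range). N2 replicate 2 was also the array with the lowest share of probes well above background, 79.4%.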

How the results depend on the processing

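The *aptf-1* difference kept its sign and its call in 22 of 23 alternatives, from -2.14 to -1.90, and leaving out 1 array gave -2.14 to -1.96. The paralogs were called in none of their 23 to 26 alternatives. Leaving out 1 array gave -0.22 to -0.05 for *aptf-2*, -0.19 to -0.03 for *aptf-3* and 0.08 to 0.23 for *aptf-4*. The *aptf-3* difference turned positive with normexp, at 0.0114 where the 75th percentile was kept and at 0.00058 where quantile normalization was used; the cause was not tested. Using each *aptf-2* or *aptf-3* probe alone was chosen after seeing the data.

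The replicate numbers paired the samples only in part: deviations from the group means correlated at 0.52, 0.28, -0.12 and 0.09 for numbers 1 to 4. Samples numbered 1 and 2 correlated best with their own number, whereas those numbered 3 and 4 did not. With the replicate number as a block the *aptf-1* difference of -2.06 had a limma adjusted p of 0.0552, 0 genes and 6 probes were called, and 0 RIS genes were called (*flp-11* adjusted p = 0.134). Within replicate pairs the *aptf-1* minus paralog shift of -2.03 had an exact permutation p of 0.125, and within slides of 0.0556, each the smallest p those designs allow. Leaving out 1 array gave -2.09 to -1.89 for that shift.

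The 18 called probes became 11 with the slide as a block, 3 with Student's t-test and 8 at an adjusted p under 0.01, and 4 to 14 when 1 array was left out (4 without N2 replicate 3). AP-2 probes called went from 1 to 0 with Student's t-test (adjusted p = 0.0581 for the *aptf-1* probe) and stayed at 1 when an array was left out. RIS genes called were 0 or 1 when 1 array was left out. Epidermal and neighbour genes called were 0 throughout. At an unadjusted p under 0.05 Student's t-test gave 0 of 3 paralogs, 2 of 6 RIS genes (*flp-11* and *lim-6*; limma gave 1), 0 of 15 epidermal genes, 0 of 21 markers and 1 of 16 neighbours (F54C9.9). Among all 35690 probes it gave 1174.

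The smallest effects are limited by 4 arrays per genotype and, for *aptf-3*, by low signal over background. Probe sequences were not used here, so that cross-hybridisation between the paralogs was not tested.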
